A study of Mus musculus with 9 samples.

Results

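The genes described here are 8 widely used direct targets of transforming growth factor β (TGF-β) signalling, Ctgf, Pmepa1, Smad7, Skil, Tgfbi, Bhlhe40, Ldlrad4 and Tgif1. They were taken by name from a table of 54532 mouse genes and followed through 9 RNA sequencing libraries. The cells were cardiosphere-derived cells of C57BL/6 mice. The first group, pECDCs, held 3 libraries of untreated primary cells grown from heart explants, which the study obtained from epicardium. The second, iECDCs, held 3 libraries of such cells immortalized with hTERT, the catalytic subunit of human telomerase, sampled untreated at passage 30. In the third group, 3 libraries came, by their labels, from immortalized cells at passage 30 that had been given SB431542 for 3 days. The study's methods instead describe RNA from an SB431542-treated epithelial clone derived from pECDCs, so the treated cells may come from 1 clone. Nothing in the labels says that the libraries of a group were separate cultures. The study's methods give fewer biological replicates per condition than there are libraries here. Its figure legend for pECDC and iECDC expression gives n = 3 without saying what was replicated. Libraries of a group may therefore share a culture: n counts libraries, and p-values measure the spread between them, which may be technical.

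TGF-β ligands bind a type II receptor, which activates the type I receptor ALK5, encoded by Tgfbr1. ALK5 phosphorylates Smad2 and Smad3, which enter the nucleus with Smad4 and switch on target genes, and activins reach the same SMADs through ALK4. SB431542 blocks the kinases ALK5, ALK4 and ALK7 and spares the receptors for bone morphogenetic proteins (BMPs). In the epicardium and in cardiac mesenchymal cells the pathway is known for driving matrix production and the change from epithelial to mesenchymal form. Ctgf (connective tissue growth factor, also named Ccn2) and Tgfbi (TGF-β-induced protein) are secreted proteins of the matrix. Smad7, Pmepa1 and Ldlrad4 encode inhibitors of the pathway: Smad7 blocks the type I receptor, and the membrane proteins Pmepa1 and Ldlrad4 bind the receptor-activated SMADs. Skil (SnoN) and Tgif1 encode nuclear co-repressors of SMADs, and Bhlhe40 encodes a helix-loop-helix repressor also known from the circadian clock.

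Total counts per library ranged from 19462912 to 23951392 in pECDCs, from 16568306 to 20204216 in iECDCs and from 17063137 to 20849975 in the treated group. Among pECDC libraries the chi-square between a pair, per degree of freedom, was at most 4.23. iECDC replicate 3 differed from the other iECDC libraries by 24.9 and 30.8, against 4.61 between those. SB431542 replicate 2 differed from the other treated libraries by 70.3 and 71.5, against 3.79 between those, so results that rest on either library are given with and without it. Cdkn2a was at 17.4 to 20.5 FPKM (fragments per kilobase of transcript, scaled to the depth of the library) in pECDCs, at most 0.0519 in iECDCs and 0 in every treated library, and Pdpn was at 50.2 to 56.9 FPKM in pECDCs and at most 0.354 elsewhere. These genes were chosen, with Barx1, Efemp1 and Renbp, because earlier results of these data had them nearly absent in immortalized cells. Values of Barx1, Efemp1 and Renbp are not given here. By Cdkn2a and Pdpn alone the treated libraries resembled iECDCs rather than pECDCs. Over 11542 genes, the root mean square difference of log2(FPKM + 1) went the other way for SB431542 replicates 1 and 3. It spanned 0.584–0.610 to pECDC libraries and 0.658–0.683 to iECDC libraries. Replicate 2 was at 0.455–0.460 and 0.419–0.464. The origin of the treated cells was not tested. All 8 mesenchymal markers were expressed at a mean of at least 1 FPKM, and the 6 endothelial markers were under 1 FPKM in every library. Of 11 epithelial and mesothelial markers, 8 were under 1 FPKM in every library, among them the defining epithelial genes Cdh1, Epcam, Krt8 and Krt18. The sum of that list ranged over 19.5–20.5 FPKM in pECDCs, 29.4–32.2 in iECDCs and 26.3–41.3 in treated cells, most of it Krt19. Haematopoietic markers summed to 11.4–12.9, 7.87–13.2 and 14.4–15.8 FPKM, with Ptprc, Adgre1 and Cd3e among those under 1 throughout. Cd68, Csf1r and Cd14 could be tested with edgeR as described below. Cd14 was higher in treated cells than in iECDCs and pECDCs, Cd68 was lower than in pECDCs, and their other tests did not pass. Cardiomyocyte markers summed to 1.02–1.31, 1.53–2.29 and 0.331–1.07 FPKM. The part of these cell types in the results was not tested.

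The promoters of Tgfbi and Tgif1, the members with RefSeq promoter sequences here, are shown because these genes differed in opposite directions between treated cells and iECDCs. Each runs from 250 bases before to 50 bases after the annotated start on GRCm38.p6, chr13:56609336-56609635 (plus strand) for Tgfbi and chr17:70853483-70853782 (minus strand) for the most upstream of the 5 Tgif1 starts. Capitals mark the short SMAD site CAGAC, read as GTCTG on the other strand, and the SMAD GC box GGCGCC.
Tgfbi: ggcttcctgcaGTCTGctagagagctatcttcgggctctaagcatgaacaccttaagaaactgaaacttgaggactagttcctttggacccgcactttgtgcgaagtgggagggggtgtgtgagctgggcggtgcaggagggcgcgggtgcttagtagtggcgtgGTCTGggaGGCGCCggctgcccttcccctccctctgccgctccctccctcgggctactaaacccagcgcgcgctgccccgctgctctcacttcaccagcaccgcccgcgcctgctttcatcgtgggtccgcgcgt
Tgif1: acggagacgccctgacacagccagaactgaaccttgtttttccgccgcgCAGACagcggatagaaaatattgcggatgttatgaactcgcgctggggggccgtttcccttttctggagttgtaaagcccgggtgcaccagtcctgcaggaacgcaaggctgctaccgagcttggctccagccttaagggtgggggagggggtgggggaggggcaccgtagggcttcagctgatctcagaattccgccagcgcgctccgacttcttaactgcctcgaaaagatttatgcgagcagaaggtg
The Tgfbi promoter held 2 short SMAD sites, at -239 and -85 from the start, and 1 GC box at -77. The Tgif1 promoter held 1 short SMAD site, at -201, and those of its other starts held between 0 and 2. Neither held the SMAD palindrome GTCTAGAC, the AP-1 site TGANTCA, the TEAD site GGAATG or the E-box CACGTG, all searched on both strands. Of 32851 mouse promoters of this length, 49.6% held a short SMAD site, 11.9% the GC box and 0.213% the palindrome, while 7.81%, 14.7% and 7.15% held the AP-1 site, the TEAD site and the E-box. Matches to such short motifs are descriptions of sequence and show no binding.

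On the coordinates of the deposited table, which are those of GRCm38, the members lie on 7 chromosomes. Ctgf spans chr10:24595442-24598683 on the plus strand, Tgfbi chr13:56609523-56639562 (plus), Smad7 chr18:75367529-75395935 (plus) and Ldlrad4 chr18:67933257-68255549 (plus). Pmepa1 spans chr2:173224458-173276533 (minus), Skil chr3:31095058-31122577 (plus), Bhlhe40 chr6:108660629-108666925 (plus) and Tgif1 chr17:70844205-70853546 (minus). Antisense genes overlap Ctgf and Bhlhe40, with at most 9 counts per library for Gm15270 and at most 2 for 0610040F04Rik.

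The first comparison asked whether the targets differed between primary and immortalized cells. Ctgf and Smad7 were higher in iECDCs, Tgfbi and Bhlhe40 were lower, and Pmepa1, Skil, Ldlrad4 and Tgif1 did not pass the test. By edgeR's quasi-likelihood test, with p-values of all 13752 tested genes adjusted by the Benjamini-Hochberg method, 2 of 8 members were thus higher and 2 lower at an adjusted p under 0.05, against 7.21% of all tested genes higher and 9.21% lower. The members' median log2 fold change was 0.13, against -0.00 over all genes tested. Since each library holds RNA of many cells, fewer expressing cells and less RNA per cell cannot be told apart.

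Ctgf had the highest level of the members in every library, at 323, 320 and 331 FPKM in pECDCs and 431, 442 and 459 FPKM in iECDCs. It was higher in iECDCs, by 0.44 ± 0.06 (SE, n = 3 against 3) on the log2 scale (1.36-fold, edgeR adjusted p = 0.00176). Smad7 was at 24.8, 26.1 and 25.3 FPKM in pECDCs and 35.3, 33.7 and 33.5 FPKM in iECDCs. The difference was 0.41 ± 0.06 (edgeR adjusted p = 0.00197). Tgfbi was the member that differed most between the untreated groups, with 2.81, 5.08 and 4.34 FPKM in pECDCs and 0.644, 0.661 and 0.518 FPKM in iECDCs. It was 6.70-fold lower in iECDCs, at -2.74 ± 0.24 on the log2 scale (edgeR adjusted p = 0.00014). Bhlhe40 was at 11.6, 11.7 and 12.3 FPKM in pECDCs and 8.77, 7.81 and 6.67 FPKM in iECDCs, a difference of -0.63 ± 0.10 (edgeR adjusted p = 0.00319). With all 9 libraries in one fit only Tgfbi kept its call, and the adjusted p of Ctgf, Smad7 and Bhlhe40 became 0.423, 0.253 and 0.0695.

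The members that missed the threshold here were close in both untreated groups. Pmepa1 was at 57.5, 59.8 and 60.9 FPKM in pECDCs and 64.1, 66.4 and 70.5 FPKM in iECDCs, a log2 difference of 0.16 ± 0.06 (edgeR adjusted p = 0.116). Tgif1 was at 10.3, 10.6 and 10.2 FPKM in pECDCs and 12.8, 12.3 and 11.3 FPKM in iECDCs, a difference of 0.22 ± 0.07 (edgeR adjusted p = 0.0603). Without iECDC replicate 3 both passed in edgeR, at 0.13 (adjusted p = 0.0264) for Pmepa1 and 0.27 (adjusted p = 0.000998) for Tgif1. Leaving out that library also raised the calls over all genes from 2258 to 4467. Tgif1 passed in DESeq2 as well (adjusted p = 0.0478). Skil was at 9.14, 9.13 and 8.72 FPKM in pECDCs and 9.31, 10.3 and 9.02 FPKM in iECDCs, and its groups overlapped (0.07 ± 0.07, edgeR adjusted p = 0.514). Ldlrad4 overlapped too, with 9.34, 9.13 and 8.33 FPKM against 8.33, 9.69 and 11.2 FPKM (0.11 ± 0.11, edgeR adjusted p = 0.55).

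**Figure D1:**
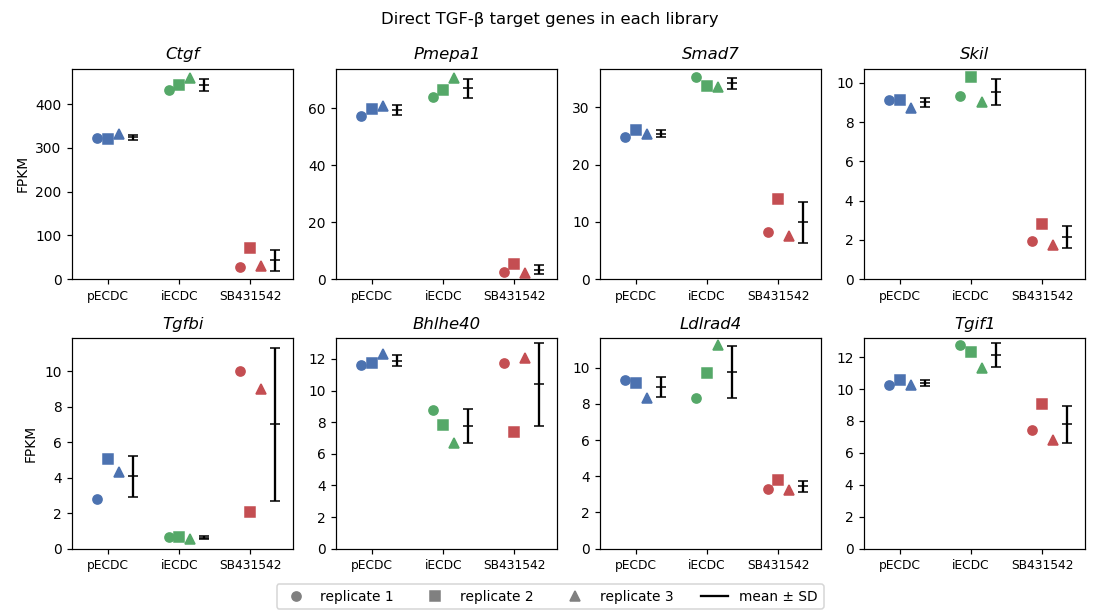
FPKM (vertical axes, each starting at 0) of the 8 genes in each of the 9 libraries, by group, with marker shape giving the replicate number and bars the mean ± SD of 3 libraries. In the SB431542 group Ctgf, Pmepa1, Smad7, Skil, Ldlrad4 and Tgif1 lie below every untreated library, Tgfbi lies above every iECDC library, and replicate 2 (squares) sits apart from replicates 1 and 3.

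By level in FPKM, which is scaled by gene length, the order in iECDCs was Ctgf, Pmepa1, Smad7, Tgif1, Ldlrad4, Skil, Bhlhe40 and Tgfbi. Ldlrad4 and Skil, with means of 9.75 and 9.54 FPKM, were within each other's range, and the ranges of the other neighbours were apart. Under SB431542 Ctgf was still highest, but Bhlhe40 came second at a mean of 10.4 FPKM, and Skil was lowest at 2.15 FPKM. Pmepa1, second in both untreated groups, was seventh of the 8 at 3.38 FPKM. Below Ctgf, every pair of neighbours in the treated order had overlapping ranges.

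The second comparison, SB431542-treated cells against iECDCs, asked how the targets stood in cells given an inhibitor of the type I receptor kinases. Treatment and the origin of the treated cells, which the labels and the study's methods describe differently, cannot be told apart here. Fell and rose therefore mean lower and higher in treated cells than in iECDCs. Pmepa1, Ctgf, Skil, Smad7, Ldlrad4 and Tgif1 fell, Tgfbi rose, and Bhlhe40 did not pass the test. These 6 lower and 1 higher of 8 members stand against 14.0% of 13559 tested genes lower and 16.0% higher. The median log2 fold change of the members was -1.63, against 0.00 over all genes tested. Each of the 7 calls held in DESeq2, in limma on log2(FPKM + 1) and in the fit of all 9 libraries.

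Among the inhibitors, Pmepa1 fell furthest. Its level was 2.54, 5.27 and 2.32 FPKM in the treated libraries, which is 3.79%, 7.87% and 3.46% of the iECDC mean of 67.0 FPKM. The fold change was -4.29 ± 0.31 on the log2 scale, a 19.6-fold decrease (edgeR adjusted p = 0.00035). Smad7 was at 8.16, 14.0 and 7.49 FPKM under treatment, against 34.1 ± 1.01 FPKM (SD, n = 3) in iECDCs. It fell by 1.78 ± 0.22 on the log2 scale, or 3.42-fold (edgeR adjusted p = 0.00176). Ldlrad4 was at 3.27, 3.80 and 3.24 FPKM, between 33.3% and 38.9% of the iECDC mean, so its treated libraries lay close together. It fell 2.81-fold, at -1.49 ± 0.15 on the log2 scale (edgeR adjusted p = 0.000984). For all 3 inhibitors the highest treated library was below the lowest iECDC library, which was so for 23.5% of all tested genes.

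The secreted members went in opposite directions. Ctgf was at 27.4, 70.9 and 30.7 FPKM in the treated libraries, or 6.16%, 16.0% and 6.92% of the iECDC mean of 444 FPKM. It fell 10.3-fold, at -3.36 ± 0.36 on the log2 scale (edgeR adjusted p = 0.00102). Tgfbi was at 9.995, 2.06 and 8.98 FPKM, against 0.608 ± 0.0784 FPKM (SD, n = 3) in iECDCs, so all treated libraries were above all iECDC libraries. It rose 11.6-fold, at 3.53 ± 0.56 on the log2 scale (edgeR adjusted p = 0.00405). Its counts were 661, 163 and 612 in the treated libraries and 49, 41 and 30 in iECDCs, the lowest of any member.

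Of the nuclear repressors, Skil fell and Tgif1 fell less. Skil was at 1.92, 2.79 and 1.73 FPKM under treatment, 18.1% to 29.3% of the iECDC mean, a change of -2.14 ± 0.18 on the log2 scale, or 4.40-fold (edgeR adjusted p = 0.000466). Tgif1 was at 7.46, 9.10 and 6.80 FPKM, 56.0% to 74.9% of the iECDC mean, a change of -0.63 ± 0.13, or 1.55-fold (edgeR adjusted p = 0.00981). Its groups did not overlap, but the call was lost without iECDC replicate 1 (adjusted p = 0.05001). Bhlhe40 was at 11.7, 7.38 and 12.1 FPKM, with replicate 2 inside the iECDC range and replicates 1 and 3 above it (0.43 ± 0.20, edgeR adjusted p = 0.134). Without SB431542 replicate 2 it passed, at 0.62 (adjusted p = 0.00229).

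**Figure D2:**
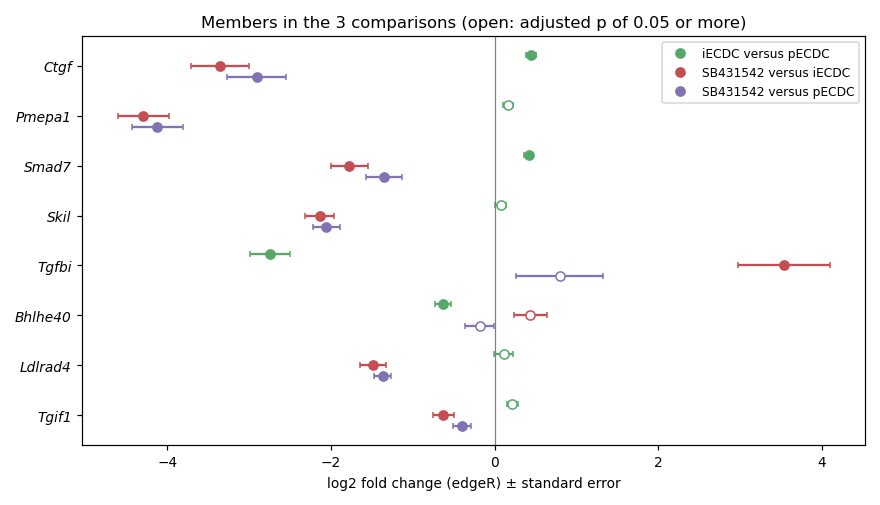
Fitted log2 fold change of each member (horizontal axis) with its standard error in the 3 comparisons, filled where the edgeR adjusted p is under 0.05. Against either untreated group Pmepa1 lies furthest to the left, at -4.29 and -4.12, while Tgfbi is low in iECDCs against pECDCs (-2.74) and high in treated cells against iECDCs (3.53).

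Compared with pECDCs, the treated libraries had 6 members lower and 0 higher, and Tgfbi and Bhlhe40 did not pass. Of 14015 genes tested in this fit, 17.0% were lower and 17.9% higher. At an unadjusted p under 0.05, and in DESeq2 and limma as well, 0 members were higher. The comparison shares its treated libraries with the one against iECDCs, so the values below are given beside those above and not as separate evidence. The median log2 fold change was -1.36 for the members and 0.01 over all genes tested.

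The log2 fold changes against pECDCs were -4.12 ± 0.31 for Pmepa1 and -2.91 ± 0.36 for Ctgf (edgeR adjusted p = 0.000297 and 0.00171). They were -2.06 ± 0.17 for Skil, -1.37 ± 0.11 for Ldlrad4 and -1.35 ± 0.22 for Smad7 (edgeR adjusted p = 0.000404, 0.000318 and 0.0045). In these 5 genes every treated library was below every pECDC library, which was so for 26.4% of all tested genes. Tgif1 was also lower, by 0.40 on the log2 scale (a change of -0.40 ± 0.11, edgeR adjusted p = 0.0264), but lost its call in 5 of 6 fits that left out 1 library, where the adjusted p was 0.0678 to 0.0978. For Tgfbi the treated libraries lay on both sides of the pECDC range, with replicates 1 and 3 above it and replicate 2 below (0.79 ± 0.53, edgeR adjusted p = 0.282). Without SB431542 replicate 2 Tgfbi was higher than in pECDCs, at 1.24 (adjusted p = 3.46e-07). Only treated replicates 1 and 3, which were close to each other, remained in that fit. It called 9188 genes in all, 4552 of them higher, against 4881 called in the main fit. Bhlhe40 in treated replicates 1 and 3 lay within the pECDC range of 11.6 to 12.3 FPKM (-0.19 ± 0.18, edgeR adjusted p = 0.459).

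The treated libraries were not alike in these genes. In 8 of 8 members SB431542 replicate 2 was the treated library nearest to the iECDC mean on the log2(FPKM + 1) scale. The same library was nearest in 61.3% of all 13559 tested genes, so its position was not particular to the members. Replicates 1 and 3 differed from each other by 0.01 in Ldlrad4 and by at most 0.16, in Ctgf. Replicate 2 lay 1.26 above the mean of the other two in Ctgf, 0.87 above it in Pmepa1 and 0.77 above it in Smad7, and for Tgfbi it was lower, with a difference of -1.78. The smallest such gap was 0.17, in Ldlrad4. Without replicate 2 the log2 fold changes against iECDCs were -4.77 for Pmepa1, -3.93 for Ctgf, -2.38 for Skil, -2.12 for Smad7, -1.57 for Ldlrad4, -0.76 for Tgif1 and 3.96 for Tgfbi. All 8 members were then called, 6 lower and 2 higher, but calls were also more frequent over all 13955 genes tested in that fit, with 24.8% lower and 25.3% higher. Leaving out iECDC replicate 3 as well, a choice made after seeing the data, gave the same numbers of members in each direction, against 31.9% of all tested genes lower and 32.6% higher.

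**Figure D3:**
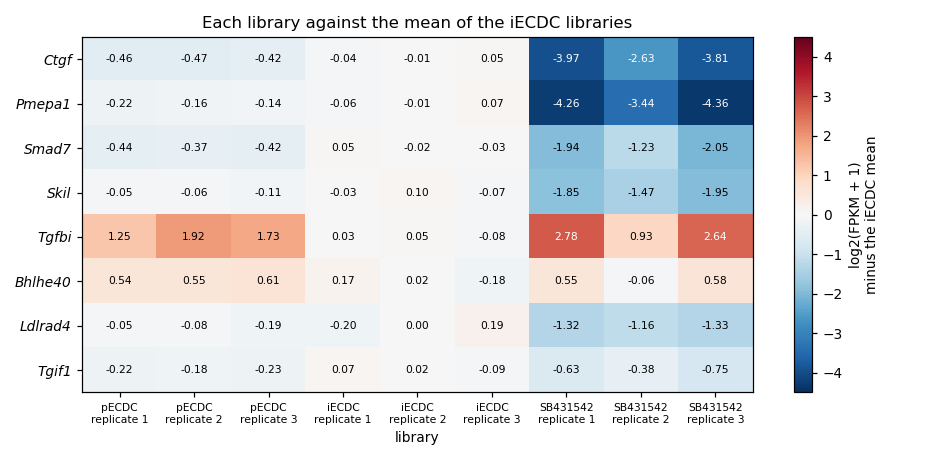
Each cell gives log2(FPKM + 1) of a member (rows) in a library (columns) minus the mean of the 3 iECDC libraries, in blue below it and red above it. SB431542 replicate 2 is paler than replicates 1 and 3 in all rows, for Ctgf at -2.63 against -3.97 and -3.81, and for Tgfbi at 0.93 against 2.78 and 2.64.

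The members' patterns over the 9 libraries were compared by the root mean square difference of log2(FPKM + 1), each gene centred on its own mean. Smad7 and Skil were the most alike pair of members, at 0.20, and Pmepa1 and Tgfbi the least alike, at 2.68. Of the 7284 genes with a mean of at least 5 FPKM, the nearest to Ctgf was Hes1 (0.27), a target of Notch signalling. Nearest to Pmepa1 was Pappa (0.23), a protease of insulin-like growth factor binding proteins. In every treated library Pappa was under 1 FPKM, where the added 1 compresses log2 values, so this match depends on the pseudocount. Its mean went from 21.1 FPKM in iECDCs to 0.235 FPKM in treated cells, that of Pmepa1 from 67.0 to 3.38 FPKM. Hes1 was at 20.8, 19.6 and 18.1 FPKM in iECDCs and 0.896, 4.64 and 1.20 FPKM under treatment, and Pappa at 20.3, 25.3 and 17.7 FPKM and 0.0724, 0.496 and 0.136 FPKM. In both, as in Ctgf and Pmepa1, replicate 2 was the highest treated library, a likeness that comes with their choice as nearest genes over these libraries.

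Smad7 was most like Fhl2 (0.08), a LIM-domain cofactor, and Plaur (0.12), the urokinase receptor. Fhl2 was at 34.0, 33.0 and 29.6 FPKM in iECDCs and 7.18, 12.0 and 7.18 FPKM under treatment. Skil was most like Apbb2 (0.07) and Gadd45g (0.13), and Ldlrad4 most like Actn1 (0.08), an actin cross-linker, and Fam198b (0.10). Tgif1 was nearest to Emc4 and Zwint (both 0.04), and Bhlhe40 to Zfp260 and Arhgef25 (both 0.09). Tgfbi was nearest to Dhrs3 (0.21), a retinaldehyde reductase, and Gas1 (0.28), a growth arrest gene. Dhrs3 was at 13.9, 15.3 and 16.2 FPKM in pECDCs, 5.86, 5.18 and 3.73 FPKM in iECDCs and 30.0, 10.3 and 29.8 FPKM under treatment. The low iECDC level and the lower replicate 2 that it shares with Tgfbi come with its choice as the nearest gene. With a pseudocount of 0.1 in place of 1, 8 of the 16 pairs of member and nearest gene, at 2 for each member, were kept.

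The pathway around the members was followed in 6 lists with 70 genes. In SB431542-treated cells against iECDCs, 24 of the 64 that were tested fell and 11 rose, against the 14.0% and 16.0% of all tested genes given above. Of 8 receptor genes tested, 5 rose, 1 fell and 2 did not pass. Tgfbr3, the co-receptor betaglycan, was at 30.7, 18.4 and 32.1 FPKM under treatment and 7.72, 7.97 and 7.07 FPKM in iECDCs, a change of 1.85 ± 0.21 (edgeR adjusted p = 0.0012). Tgfbr1, which encodes ALK5, the target of the compound, rose by 0.69 ± 0.14 (9.24, 7.97 and 10.2 FPKM against 5.79, 6.41 and 4.86 FPKM, edgeR adjusted p = 0.0102). Acvr1b, which encodes ALK4, another target, rose by 1.10 ± 0.14 (edgeR adjusted p = 0.00166), and Acvr1c, which encodes ALK7, had at most 3 counts in any library. Tgfbr2, the type II receptor, rose by 0.52 ± 0.12 (edgeR adjusted p = 0.0159), a call lost without any 1 of iECDC replicates 1 and 2 and SB431542 replicates 1 and 3 (adjusted p = 0.0685 to 0.0773). Acvrl1, the type I receptor ALK1, fell by 0.57 ± 0.12 (a change of -0.57, edgeR adjusted p = 0.0107, but 0.0541 without SB431542 replicate 3), and endoglin (Eng) had a change of -0.17 ± 0.15 (edgeR adjusted p = 0.397).

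Of 11 ligand and latency genes tested, 3 rose and 4 fell, against 16.0% and 14.0% of all tested genes. The activin subunits moved apart: Inhba fell from 111, 127 and 77.1 FPKM in iECDCs to 31.3, 37.0 and 33.7 FPKM (-1.62 ± 0.19, edgeR adjusted p = 0.00142), and Inhbb rose from 8.89, 8.35 and 9.82 FPKM to 20.4, 21.6 and 20.3 FPKM (1.21 ± 0.10, edgeR adjusted p = 0.000466). For Lrrc32 (GARP), which holds latent TGF-β at the cell surface, the treated libraries were at 5.01, 4.47 and 4.85 FPKM against 18.8, 19.0 and 12.5 FPKM (-1.80 ± 0.17, edgeR adjusted p = 0.000739). In these genes replicate 2 lay close to the other treated libraries. Tgfb2 and Tgfb3 rose by 0.87 ± 0.25 and 0.77 ± 0.15 (edgeR adjusted p = 0.0305 and 0.00929), and Tgfb1, the most abundant of the 3 ligands, had a change of 0.17 ± 0.15 (edgeR adjusted p = 0.409), or 0.31 without SB431542 replicate 2 (adjusted p = 0.0193). The call for Tgfb2 was lost without any 1 of iECDC replicates 1 and 2 and SB431542 replicates 1 and 3 (adjusted p = 0.0703 to 0.117).

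Among 8 SMADs and partners tested, 1 rose and 3 fell, where 16.0% of all tested genes rose and 14.0% fell. Smad3 rose from 12.8, 12.4 and 14.7 FPKM to 25.4, 29.3 and 24.0 FPKM (0.99 ± 0.12, edgeR adjusted p = 0.00152), while Smad2 fell slightly (-0.46 ± 0.09, edgeR adjusted p = 0.00976, but 0.0525 without iECDC replicate 1). Smad4, the partner of both, had a change of 0.17 ± 0.10 (edgeR adjusted p = 0.251). Smurf2, a ubiquitin ligase that works with Smad7 on the type I receptor, fell from 34.7, 38.6 and 40.0 FPKM to 12.7, 16.0 and 13.0 FPKM (-1.43 ± 0.13, edgeR adjusted p = 0.000578). Ski, the relative of Skil, fell by 0.44 (a change of -0.44 ± 0.14, edgeR adjusted p = 0.044), and without any 1 library other than SB431542 replicate 2 its adjusted p was 0.0688 to 0.137.

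Of 23 further TGF-β-responsive genes tested, 12 fell, 2 rose and 9 did not pass, with a median log2 fold change of -0.84. Over all tested genes 14.0% fell and 16.0% rose. Acta2, smooth muscle actin, was at 812, 848 and 1898 FPKM in iECDCs, where replicate 3 stood apart, and 137, 322 and 137 FPKM under treatment (-2.56 ± 0.45, edgeR adjusted p = 0.00581). Adam12, a metalloprotease, was at 2.76, 3.12 and 5.77 FPKM and then at 0.307, 1.03 and 0.262 FPKM (-2.83 ± 0.52, edgeR adjusted p = 0.00695), with -3.75 when SB431542 replicate 2 was left out. Il11, a cytokine, had 152, 124 and 43 counts in iECDCs and 0, 17 and 7 counts in treated libraries. The cell cycle inhibitor Cdkn1a, the pseudoreceptor Bambi and the early genes Klf10 and Gadd45b fell between 2.02-fold and 2.24-fold. Sphk1 and Igfbp3 rose, by 1.01 ± 0.11 and 1.59 ± 0.27 (edgeR adjusted p = 0.0012 and 0.0053). The matrix genes Fn1 and Col1a1 did not pass. Fn1 was at 728, 434 and 659 FPKM against 325, 367 and 469 FPKM (0.66 ± 0.23, edgeR adjusted p = 0.0602), and Col1a1 had a change of 0.19 ± 0.28 (edgeR adjusted p = 0.618). Without SB431542 replicate 2 both were higher, at 0.85 (adjusted p = 0.00158) and 0.47 (adjusted p = 0.0131).

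**Figure D4:**
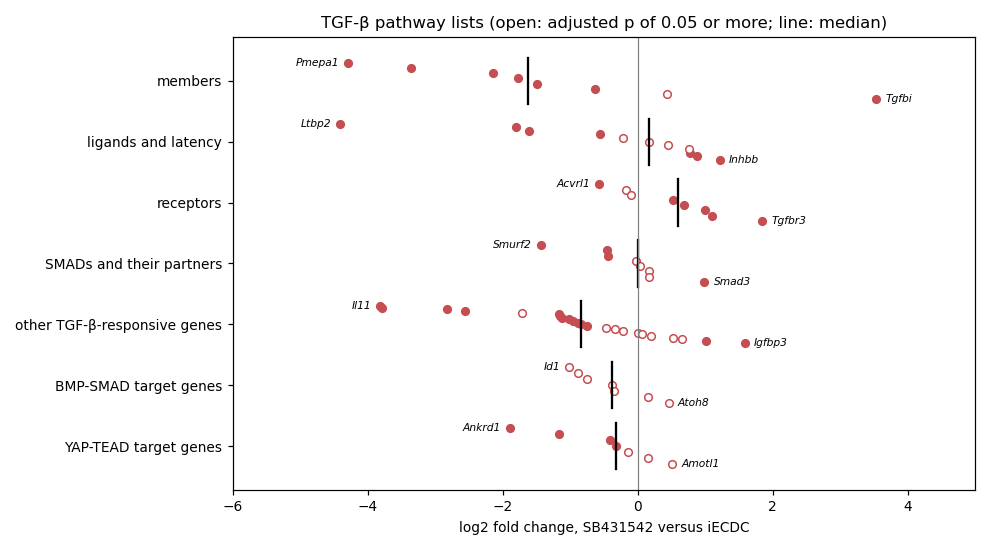
Log2 fold change of SB431542-treated cells against iECDCs (horizontal axis) for each tested gene of the members and of the 6 pathway lists, filled where the edgeR adjusted p is under 0.05, with a line at each list's median and names at the ends. The median is -1.63 for the members and 0.60 for the receptors, and no BMP target is filled.

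The same comparison was read in targets of other pathways that reach some of these genes. Of 7 BMP-SMAD targets tested, 0 passed in edgeR, 2 had an unadjusted p under 0.05, and 2 passed in DESeq2 and 1 in limma. Id1 was at 76.6, 66.2 and 62.2 FPKM in iECDCs and 17.3, 65.3 and 17.7 FPKM under treatment, so SB431542 replicate 2 was at the iECDC level and the others were not. Id3 (75.5, 174 and 76.2 FPKM against 220, 188 and 195 FPKM) and Smad6 (7.13, 15.1 and 6.11 FPKM against 14.1, 13.9 and 20.4 FPKM) had the same order. Without replicate 2, 4 of the 7 were lower, where 24.8% of all tested genes were lower, Id1 at -1.95 (edgeR adjusted p = 3.24e-06), whereas Id2 had a change of 0.15 with it and -0.21 without it. Of 7 YAP-TEAD targets, a pathway through which Ctgf is also switched on, 4 fell and 0 rose in edgeR, DESeq2 and limma. At an unadjusted p under 0.05, 1 was higher. In edgeR 14.0% of all tested genes fell and 16.0% rose. Ankrd1 was at 661, 639 and 463 FPKM in iECDCs and 105, 245 and 124 FPKM under treatment (-1.89 ± 0.32, edgeR adjusted p = 0.00504), without SB431542 replicate 2 at -2.35. Cyr61, a relative of Ctgf, fell from 659, 660 and 659 FPKM to 238, 389 and 250 FPKM (-1.16 ± 0.19, edgeR adjusted p = 0.00484), and Amotl2 and Lats2 changed by -0.42 and -0.33. The last pair lost their calls when 1 library was left out, Amotl2 for any but SB431542 replicate 2 (adjusted p = 0.0503 to 0.129) and Lats2 for iECDC replicates 1 and 2 and SB431542 replicates 1 and 3 (adjusted p = 0.122 to 0.139).

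Between pECDCs and iECDCs 8 of 66 tested pathway genes were higher and 15 lower in iECDCs, against 7.21% of all tested genes higher and 9.21% lower. Of 11 ligand and latency genes 5 were lower in iECDCs and 0 higher, as in DESeq2 and limma and at an unadjusted p under 0.05, where 6 were lower. Lrrc32 was at 38.5, 38.2 and 40.5 FPKM in pECDCs, so it was lower in iECDCs (-1.23 ± 0.14, edgeR adjusted p = 0.000609) and lower again under treatment. Tgfb1, Tgfb2, Tgfb3 and Inhbb changed by -0.26, -0.60, -0.48 and -0.40. The receptors were mixed, with 3 lower and 2 higher of 8 tested. Tgfbr1, Tgfbr3 and Acvr1b were lower in iECDCs, with log2 fold changes of -0.66, -0.48 and -0.39, and Eng and Acvrl1 were higher, at 0.35 ± 0.07 and 0.32 ± 0.08 (edgeR adjusted p = 0.00843 and 0.0316). The call for Eng was lost without pECDC replicate 1 or 2 (adjusted p = 0.0556 and 0.0575) and that for Acvrl1 without any 1 library other than iECDC replicate 3 (adjusted p = 0.0567 to 0.148). Of 8 SMADs and partners 1 was lower, Smad3 at -0.43, and 1 higher. Dropping a single pECDC library raised the adjusted p past 0.05 for Tgfb1, Tgfb2 and Gadd45b (any of the 3), Klf10 (replicate 2 or 3), Acvr1b (replicate 1 or 2) and Inhbb (replicate 1), with values from 0.0513 to 0.123 over these genes. Tgfb1 also lost its call without iECDC replicate 2, and Tgfb2 without iECDC replicate 1 or 2 (adjusted p = 0.0558 to 0.0701). The higher one was Smurf2, at 0.57 ± 0.07 (edgeR adjusted p = 0.000686). Of 25 further TGF-β-responsive genes 3 were higher, 5 lower and 17 did not pass. Klf10 and Gadd45b were higher in iECDCs, by 0.63 and 0.35, and Igfbp3 was lower in iECDCs, at -2.64 ± 0.22 (edgeR adjusted p = 0.000108), with 1.35, 1.86 and 1.86 FPKM in pECDCs and 0.237, 0.311 and 0.270 FPKM in iECDCs. Without iECDC replicate 3 there were 36 such pathway calls and 4467 over all genes, and with all 9 libraries in one fit there were 8 and 671.

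Treated cells against pECDCs had 13 pathway genes higher and 26 lower of 65 tested, against 17.9% of all tested genes higher and 17.0% lower, including 15 lower and 2 higher of 24 further TGF-β-responsive genes. Acta2 changed by -1.87 ± 0.33 and Inhba by -1.72 ± 0.09 (edgeR adjusted p = 0.00608 and 8.02e-05). Lrrc32 was 8.13-fold lower than in pECDCs (-3.02 ± 0.08, edgeR adjusted p = 9.72e-06). Tgfbr3 and Smad3 were higher, by 1.37 ± 0.20 and 0.57 ± 0.09 (edgeR adjusted p = 0.00329 and 0.0034), and Smurf2 was lower, at -0.85 ± 0.10 (edgeR adjusted p = 0.00133).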

How the data were processed

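RNA of 9 libraries was sequenced, and the submitters' processing notes name TopHat2 2.0.9, Bowtie2 2.0.6 and mm9. The coordinates in the deposited table are those of GRCm38 (53499 of 54409 genes found in GENCODE M21 had the same start and end, and 7 of 8 members). The counting program and the use of strand are not given in the sources used here. The authors deposited read counts per gene, not normalized, and FPKM values, each a count over gene length and over 1 constant per library. Their group means, fold changes and p-values were not used. Labels name a TruSeq kit, the paper other kits.

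Counts were tested with edgeR 4.0.16 (R 4.3.3): filterByExpr (minimum count 10, minimum total count 15), TMM normalization, the quasi-likelihood test, Benjamini-Hochberg adjustment at 0.05 over all tested genes, and only the compared groups' libraries in the fit. Alternatives were DESeq2 1.42.0, limma 3.58.1 on log2(FPKM + 1) or log2(FPKM + 0.1), RLE size factors, no filter, a floor of 10 counts in every library, a fit of all 9 libraries, a replicate block, each library left out, and a log2 fold change of at least 1. Scripts were checked on simulated counts. Tables and figures were made with pandas 2.3.3, numpy 2.4.6 and matplotlib 3.10.9. Promoters came from RefSeq (GRCm38.p6), where 2 of 8 members matched. Named genes are the members, genes of the pathway, marker and label lists, and the 2 genes nearest to each member. A few of these genes are left out of the text. Members and lists were chosen with earlier results of these data known.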

Additional observations from a re-analysis of the deposited data

How the results depend on the processing

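Of 344 refits of single members, 327 kept their direction and their side of the 0.05 threshold. With 1 library left out, Ldlrad4 in iECDCs against pECDCs ranged from -0.0025 (without iECDC replicate 3) to 0.21, and Bhlhe40 in SB431542 against pECDCs from -0.31 to 0.010 (without SB431542 replicate 2). Among other named genes in SB431542 against iECDCs, Id2 ranged from -0.21 (without SB431542 replicate 2) to 0.31, and was at -0.30 without iECDC replicate 3 as well, and Col1a1 ranged from -0.029 (without SB431542 replicate 1) to 0.47. The cause was not tested.

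For iECDCs against pECDCs the count of all genes called was 2258, 671 with all 9 libraries in the fit, 512 with a log2 fold change of at least 1, and 1036–4467 with 1 library left out (4467 without iECDC replicate 3). Members called were 4, 1 with all 9 libraries, 1 with the fold limit and 4–6 with 1 library left out, and pathway genes called were 23, 8, 4 and 10–36. For SB431542 against iECDCs all genes called were 4061, 1434 with the fold limit, 1707–7001 with 1 library left out (7001 without SB431542 replicate 2) and 8951 without that library and iECDC replicate 3, an alternative chosen after seeing the data. Pathway genes were 35, 20 with the fold limit and 54 without both libraries. For SB431542 against pECDCs all genes were 4881, 1330 with the fold limit and 2453–9188 with 1 library left out (9188 without SB431542 replicate 2), and pathway genes 39 and 14 with the fold limit. Of the 16 nearest genes 8 were kept with a pseudocount of 0.1, and 13 with a mean of at least 10 FPKM.

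With the replicate number as a block, members called were 4, 7 and 6 in the 3 comparisons, as without it, and all genes called were 1791, 3038 and 3886. Deviations from group means correlated between same-numbered libraries from -0.26 to 0.05 across genes, and libraries did not each correlate best with their own number, so the numbers were not taken as a pairing. Each member had at least 30 counts in every library.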

Other observations

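Of 8 mesenchymal markers, 3 were higher in treated cells than in iECDCs, 1 was lower and 4 did not pass. Of all tested genes 16.0% were higher and 14.0% lower. The sum of the list ranged over 1419–1889 FPKM in treated cells, 1831–2162 in iECDCs and 1771–1812 in pECDCs. Pdgfra and Pdgfrb, the receptors for platelet-derived growth factors, rose by 0.96 ± 0.12 and 1.23 ± 0.24 on the log2 scale (edgeR adjusted p = 0.0018 and 0.00902), with Pdgfrb at 65.8, 31.9 and 57.8 FPKM against 21.2, 22.2 and 23.4 FPKM. Ly6a, which encodes Sca-1, was at 35.4, 16.2 and 37.0 FPKM against 7.11, 6.51 and 5.08 FPKM (2.25 ± 0.32, edgeR adjusted p = 0.00262). Vim, the intermediate filament vimentin, was lower, at 752, 774 and 648 FPKM against 1040, 1081 and 1299 FPKM (-0.64 ± 0.15, edgeR adjusted p = 0.0169, but 0.0622 to 0.0861 without any 1 of iECDC replicate 2 and SB431542 replicates 1 and 3). Eng, Thy1 and Col1a1 did not pass. Nor did Tbx18, an epicardial transcription factor, which was at 39.7, 22.9 and 41.8 FPKM against 25.0, 23.2 and 18.8 FPKM, and SB431542 replicate 2 was again at the iECDC level (0.65 ± 0.23, edgeR adjusted p = 0.0626).

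Of 11 epithelial and mesothelial markers 4 could be tested in treated cells against iECDCs, and 3 of them were higher in edgeR. Between the untreated groups 2 could be tested, Krt19 and Tcf21. Upk3b and Wt1 passed the count filter only with the treated libraries, where they were higher. The filter thus partly fixed this count, so it is not set against the share of all genes. Krt19 did not pass (-0.09 ± 0.19, edgeR adjusted p = 0.754). The epithelial genes Cdh1, Epcam, Krt8 and Krt18 stayed under 1 FPKM. Upk3b, a mesothelial gene, was at 1.16, 1.31 and 1.36 FPKM under treatment and at most 0.166 FPKM in the other libraries (3.45 ± 0.35 against iECDCs, edgeR adjusted p = 0.000912). Tcf21, an epicardial transcription factor, was at 1.58, 1.38 and 1.34 FPKM against 0.590, 0.570 and 0.388 FPKM in iECDCs (1.47 ± 0.26, edgeR adjusted p = 0.00565). For both, replicate 2 lay with the other treated libraries. The third was Wt1, which stayed under 1 FPKM in every library.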
